A study of Mus musculus with 34 samples.

Results

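Islets of mice that had received diphtheria toxin (DT) and were kept on the diet labelled HFD were compared with islets of untreated mice on the same diet, both taken at 10 weeks. The libraries were chosen by their titles, which gave 3 DT HFD libraries (replicates 1 to 3) and 4 CTRL HFD libraries (replicates 2 to 5), 7 of the 34 libraries of the series. A further library, titled as a CTRL HFD replicate but with DT as its treatment label, was left out. All groups share the genotype label RIP-DTR HTZ, so the untreated mice carry the transgene as well. RIP-DTR places the receptor for the toxin under the rat insulin promoter, which confines it largely to insulin-producing beta cells, and per the series' design text the ablation was partial. The label 10WPA of the DT mice is read here as 10 weeks after ablation, while the controls are labelled 10W. HFD and SD, the diet of the groups CTRL SD (n = 3) and DT SD (n = 4) at the same time, are by usage in the field a high-fat and a standard diet. STZ HFD (n = 4) are mice on HFD given 75 mg/kg streptozotocin, a chemical beta-cell toxin. Ages are not given in the labels, and no label says that replicates came from separate animals, so that p-values measure only the spread between these samples.

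Beta cells secrete insulin from dense-core granules when glucose enters through GLUT2, is phosphorylated by glucokinase and closes the ATP-sensitive potassium channel. Adult beta cells seldom divide, and partial loss of them or a high-fat diet is known to raise their replication for a time. Dividing cells of any type switch on DNA replication genes in S phase and mitotic genes in G2 and M phase, so bulk RNA of an islet preparation does not show which cells divide. In the same way, fewer cells of a type and less RNA per cell cannot be told apart in these samples.

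RNA was sequenced in bulk, and reads per gene were compared as deposited counts. Totals ran from 11681462 to 14943091 counts in the 7 libraries. The hormones Ins2 and Gcg were abundant in all of them, at 19244 CPM or more and 16640.2 CPM or more, where CPM scales counts to a common library size. On the principal components of the 7 libraries the first took 35.98% of the variance, with DT HFD replicates 2 and 3 at one end of it. Markers of other cell types differed between libraries of 1 group, and the source of these transcripts was not tested. Summed CPM of 6 erythrocyte markers were 37.5, 35.7, 311.7 and 135.6 in CTRL HFD replicates 2 to 5. Summed CPM of 15 enterocyte markers were 2878 in DT HFD replicate 1 against 62.0 to 200.3 in the other 6 libraries, and summed CPM of 17 B- and plasma-cell markers were 20262 and 20963 in DT HFD replicates 2 and 3 against 6178 to 11467 in the other 5.

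Of 17616 genes tested, 1 differed between DT HFD and CTRL HFD at an adjusted p below 0.05 (0.00568%). This was the ribosomal protein gene Rps2, which rose, and 0 genes fell (0%). The test was edgeR's quasi-likelihood F test with Benjamini-Hochberg adjustment over all genes. At an unadjusted p below 0.05 it gave 2104 genes (11.9%), of which 1185 were higher (6.73%) and 919 lower (5.22%) in DT HFD. All DT HFD libraries lay above all CTRL HFD libraries for 906 genes (5.14%) and below them for 1127 genes (6.4%). The median gene differed by 0.03 on the log2 scale. Without DT HFD replicate 1 the test called 17 genes, without DT HFD replicate 2 or without CTRL HFD replicate 5 it called 0, and the Wald test of DESeq2 on all libraries called 63. Shares of all genes quoted below are those of the fit of all groups. Fits without a library or of the 7 libraries alone have their own shares at an unadjusted p below 0.05. Those shares are not reported here, so list counts from such fits have no background beside them. The log2 differences named from here on are DT HFD minus CTRL HFD with their standard error (SE), and apart from Rps2 they did not pass.

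**Figure D1:**
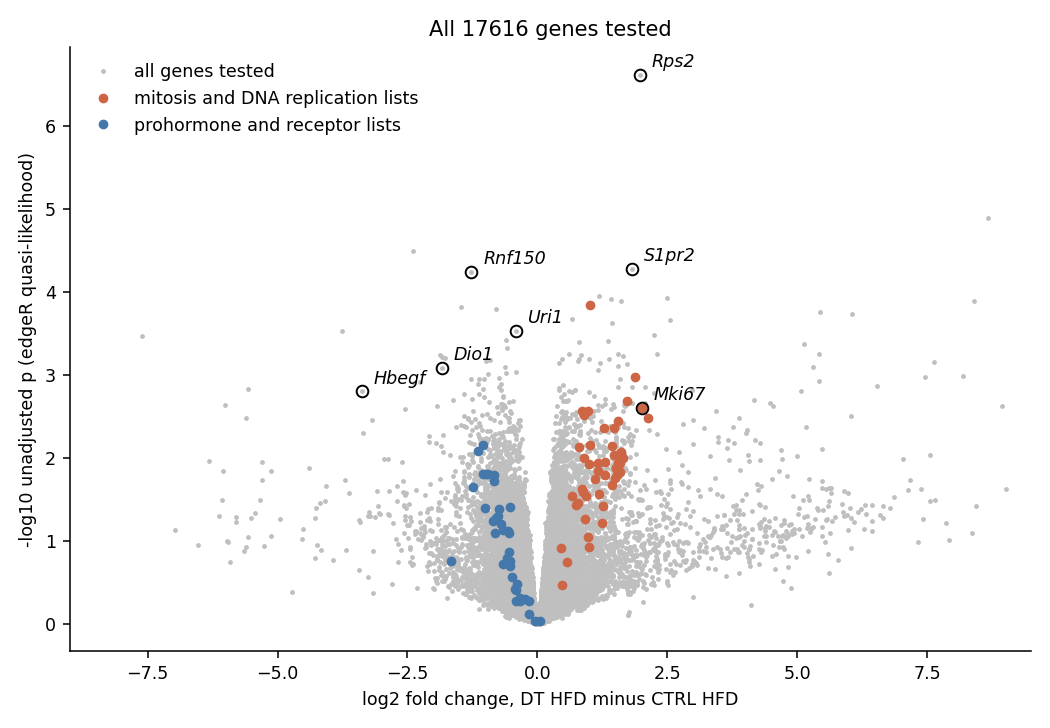
Log2 fold change of DT HFD minus CTRL HFD (horizontal axis) against -log10 of the unadjusted p (vertical axis) for each of 17616 genes tested, 1 point a gene, with the cell-cycle lists and the prohormone and receptor lists in colour and 7 genes circled and named. Rps2, the gene that passed, stands highest, and all cell-cycle genes lie above 0 while all but 1 of the prohormone and receptor genes lie below it.

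Rps2 encodes a protein of the small ribosomal subunit and lies on chromosome 17 (GRCm38, 24718116 to 24721929, plus strand; ENSMUSG00000044533). It stood at 83.8, 62.6, 72.2 and 54.7 CPM in CTRL HFD replicates 2 to 5 and at 229, 319 and 260.5 CPM in DT HFD replicates 1 to 3. The lowest DT library was thus far above the highest control. The means were 68.3 ± 12.6 (SD, n = 4) and 269 ± 45.6 (SD, n = 3) CPM, a log2 difference of 1.98 (SE 0.29, adjusted p = 0.00421 by edgeR). Without CTRL HFD replicate 5 the adjusted p was 0.055 with a difference of 1.89, and without DT HFD replicate 2 it was 0.0667 with 1.84. Rps2 has near-identical copies in the genome between which reads can be split, and its values are uncertain for that reason.

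The same gene was measured at 10 weeks on SD, at 70.2 to 75.9 CPM in CTRL SD and 183 to 228 CPM in DT SD. That difference was 1.48 on the log2 scale (adjusted p = 0.0655), and the DT difference on HFD exceeded it by 0.50 (SE 0.41, adjusted p = 0.515). In DT mice without a diet label Rps2 stood at 244 to 277 CPM 5 days after ablation (DT 5DPA) and 143 to 213 CPM 30 days after it (DT 30DPA), against 68.9 to 115 CPM in the CTRL group without a time or diet. STZ HFD libraries held 237 to 544 CPM, and STZ SD libraries 90.1 to 344 CPM. The ranges of all DT groups thus lay above those of all untreated groups.

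**Figure D2:**
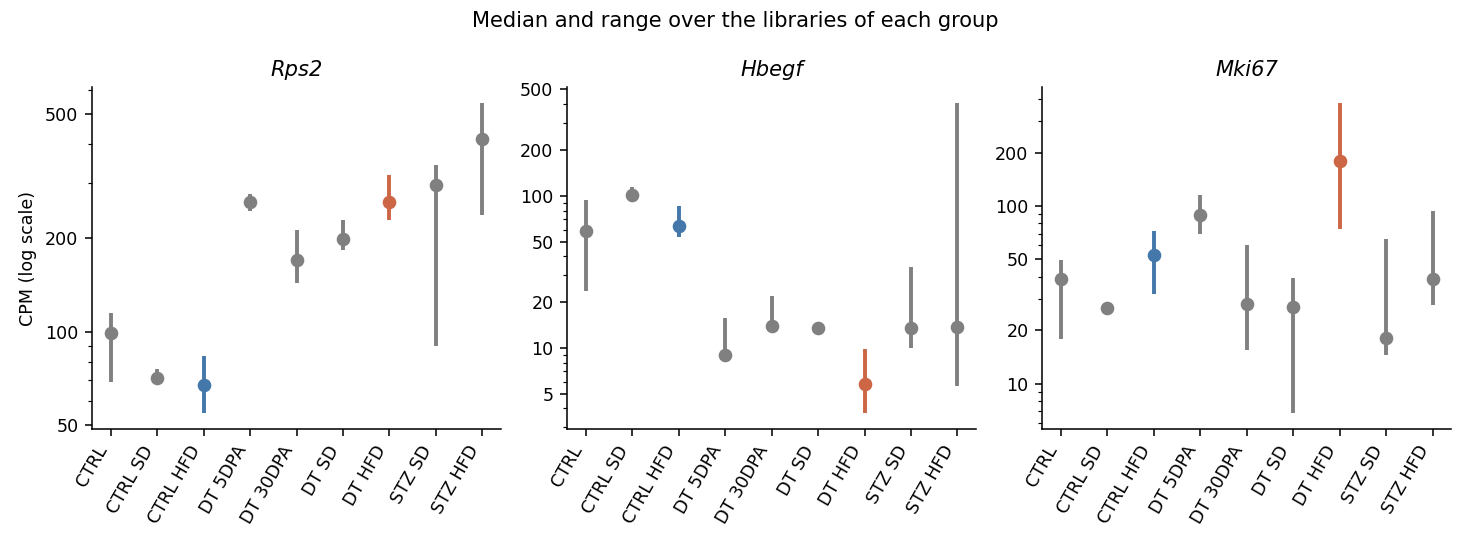
CPM (log axis) of Rps2, Hbegf and Mki67 in the 9 labelled groups, with the median as a point and the range over the libraries as a line. Rps2 lies above the untreated groups in every DT group, Hbegf lies below them in every DT group, and the median of Mki67 is highest in DT HFD.

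Genes of the cell cycle had higher mean values in DT HFD than in CTRL HFD. The mitosis list holds 22 genes of G2 and M phase, all of which were tested. Of these 0 passed, 21 were higher at an unadjusted p below 0.05, against 6.73% of all genes, and the median log2 difference was 1.54. The DNA replication list holds 28 genes, of which 0 passed and 22 were higher at that threshold, with a median of 0.95. All members of both lists were above 0, and 5 of 22 and 6 of 28 had groups that did not overlap, against 5.14% of all genes.

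The promoters of 3 members are shown because many cell-cycle genes are known to be timed by short elements before their start: the CCAAT box and the CHR in G2 and M phase genes, and E2F sites in S phase genes. Cenpe and Cenpf stand for mitosis and Prim1 for DNA replication. Each is the 250 bases before the RefSeq start (GRCm38.p6), 5′ to 3′ on the gene's strand, with matches on either strand in capitals. The letters searched were CCAAT for the box of that name, for the CHR either TTTGAA or its variant TTTAAA, and for E2F the run TTCCCGC. Cenpe lies at chr3:135212313-135212562 (plus), Cenpf at chr1:189688087-189688336 (minus) and Prim1 at chr10:128014965-128015214 (plus).
Cenpe: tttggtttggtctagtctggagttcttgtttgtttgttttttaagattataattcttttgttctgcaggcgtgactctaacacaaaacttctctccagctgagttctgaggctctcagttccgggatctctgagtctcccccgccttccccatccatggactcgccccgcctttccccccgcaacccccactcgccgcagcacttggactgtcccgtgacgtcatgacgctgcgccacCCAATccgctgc
Cenpf: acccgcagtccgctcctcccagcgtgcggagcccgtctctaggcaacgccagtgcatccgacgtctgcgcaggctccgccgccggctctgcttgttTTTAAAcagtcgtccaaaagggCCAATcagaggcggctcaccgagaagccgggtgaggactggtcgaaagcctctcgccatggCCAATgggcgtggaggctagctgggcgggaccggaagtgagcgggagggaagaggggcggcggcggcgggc
Prim1: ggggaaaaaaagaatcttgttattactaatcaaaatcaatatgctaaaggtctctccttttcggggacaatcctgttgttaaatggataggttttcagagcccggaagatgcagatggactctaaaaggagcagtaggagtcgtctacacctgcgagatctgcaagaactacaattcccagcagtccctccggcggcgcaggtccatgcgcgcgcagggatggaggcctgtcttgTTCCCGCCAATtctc
Cenpe has 1 CCAAT box, Cenpf has 2 and 1 CHR, and in Prim1 the E2F and CCAAT letters overlap. Of the 22 mitosis genes 18 had a promoter in the table, and 16 of these (88.9%) held a CCAAT box, against 34.5% of 27025 promoters. A CHR was in 11 (61.1%), against 25.5%, and an E2F match in 0 (0%), against 3.84%. Of the 28 DNA replication genes 23 had a promoter there. Of these 14 (60.9%) held a CCAAT box, 6 (26.1%) an E2F match and 5 (21.7%) a CHR, the last below the share of all promoters. These matches are letters in a window and not measured binding. The shares follow from the list members alone and use no value of these libraries.

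Mki67, which encodes the proliferation marker Ki-67, stood at 42.8, 63.3, 72.7 and 31.9 CPM in CTRL HFD replicates 2 to 5 and at 74.4, 381 and 178 CPM in DT HFD replicates 1 to 3. DT HFD replicate 1 was next to the highest control, and replicate 2 was highest by far. The difference was 2.00 (SE 0.60, adjusted p = 0.33), and without DT HFD replicate 2 it was 1.26 (adjusted p = 0.996).

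Cenpe, a kinetochore motor, stood at 8.93, 11.5, 10.2 and 5.01 CPM in the controls and at 12.8, 58.9 and 26.2 CPM in DT HFD (1.87, SE 0.51, adjusted p = 0.315). The kinetochore protein gene Cenpf stood at 7.89, 7.47, 11.2 and 3.80 CPM against 9.53, 41.9 and 23.7 CPM (1.72, SE 0.50, adjusted p = 0.33). For both genes the order of the DT libraries was that of Mki67, and for Cenpf the groups overlapped. The topoisomerase gene Top2a differed by 1.54 (SE 0.58, adjusted p = 0.351), the mitotic kinase genes Plk1 and Aurka by 1.52 and 1.17, and Ccnb1, encoding cyclin B1, by 1.60.

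Prim1, the catalytic primase subunit, had the smallest p of the DNA replication list. It stood at 7.54, 10.2, 9.70 and 7.35 CPM in the controls and at 12.1, 24.8 and 16.1 CPM in DT HFD. The groups did not overlap, and the difference was 1.02 (SE 0.23, adjusted p = 0.213). Pcna, the sliding clamp of DNA polymerases, stood at 63.4, 70.5, 69.3 and 53.4 CPM against 76.7, 172 and 101 CPM (0.86, SE 0.26, adjusted p = 0.33). Mcm10, a replication initiation factor, differed by 2.12 (SE 0.66), and the helicase subunit genes Mcm2 and Mcm5 by 0.98 and 1.18 with overlapping groups.

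Hjurp and Hmga1, which dividing cells express, were among the genes with the smallest p outside the lists. Hjurp, the chaperone that loads the centromeric histone, stood at 25.8, 22.3, 32.9 and 21.9 CPM in the controls and at 36.6, 101 and 68.6 CPM in DT HFD (1.41, SE 0.31, adjusted p = 0.213). Hmga1, a chromatin architecture protein, stood at 17.7, 23.7, 24.5 and 20.8 CPM against 32.9, 67.1 and 47.3 CPM (1.18, SE 0.26, adjusted p = 0.213). In both the DT libraries were all above the controls, again with replicate 2 highest.

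The regulators that act before S phase were on both sides of 0. Of 13 D cyclins and CDK inhibitors 2 were higher and 1 lower at an unadjusted p below 0.05, where 6.73% and 5.22% of all genes were, with a median of 0.04. Ccnd1, encoding cyclin D1, stood at 118, 127, 115 and 112 CPM in the controls and lower, at 73.7, 76.2 and 86.5 CPM, in DT HFD (-0.58, SE 0.19, adjusted p = 0.33). Ccnd2 differed by -0.33 and Ccnd3 by 0.58. The CDK inhibitor gene Cdkn1a was at -0.01 (SE 0.47), a value whose sign changed with the scaling, and 20 p53 targets had a median of 0.10.

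Summed over the mitosis list, CPM were 248, 325, 306 and 148 in CTRL HFD replicates 2 to 5 and 319, 1412 and 662 in DT HFD replicates 1 to 3. DT HFD replicate 1 was therefore within the range of the controls. Among the DT libraries replicate 1 was also lowest in both lymphocyte lists. Sums of 19 T- and NK-lymphocyte markers were 351, 420, 578 and 205 in the controls and 343, 739 and 546 in DT HFD. For these markers only DT HFD replicate 2 exceeded all controls, as replicate 3 was below CTRL HFD replicate 4. Sums of the B- and plasma-cell markers were 9197, 8992, 11467 and 8364 against 6178, 20262 and 20963, with replicates 2 and 3 above all controls. The part of lymphocytes in the cell-cycle values was not tested. Without DT HFD replicate 2 the median of the mitosis list was 0.84 with 2 genes higher at an unadjusted p below 0.05, and that of the DNA replication list 0.47 with 1 gene. Without DT HFD replicate 1 the medians were 1.91 and 1.24.

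**Figure D3:**
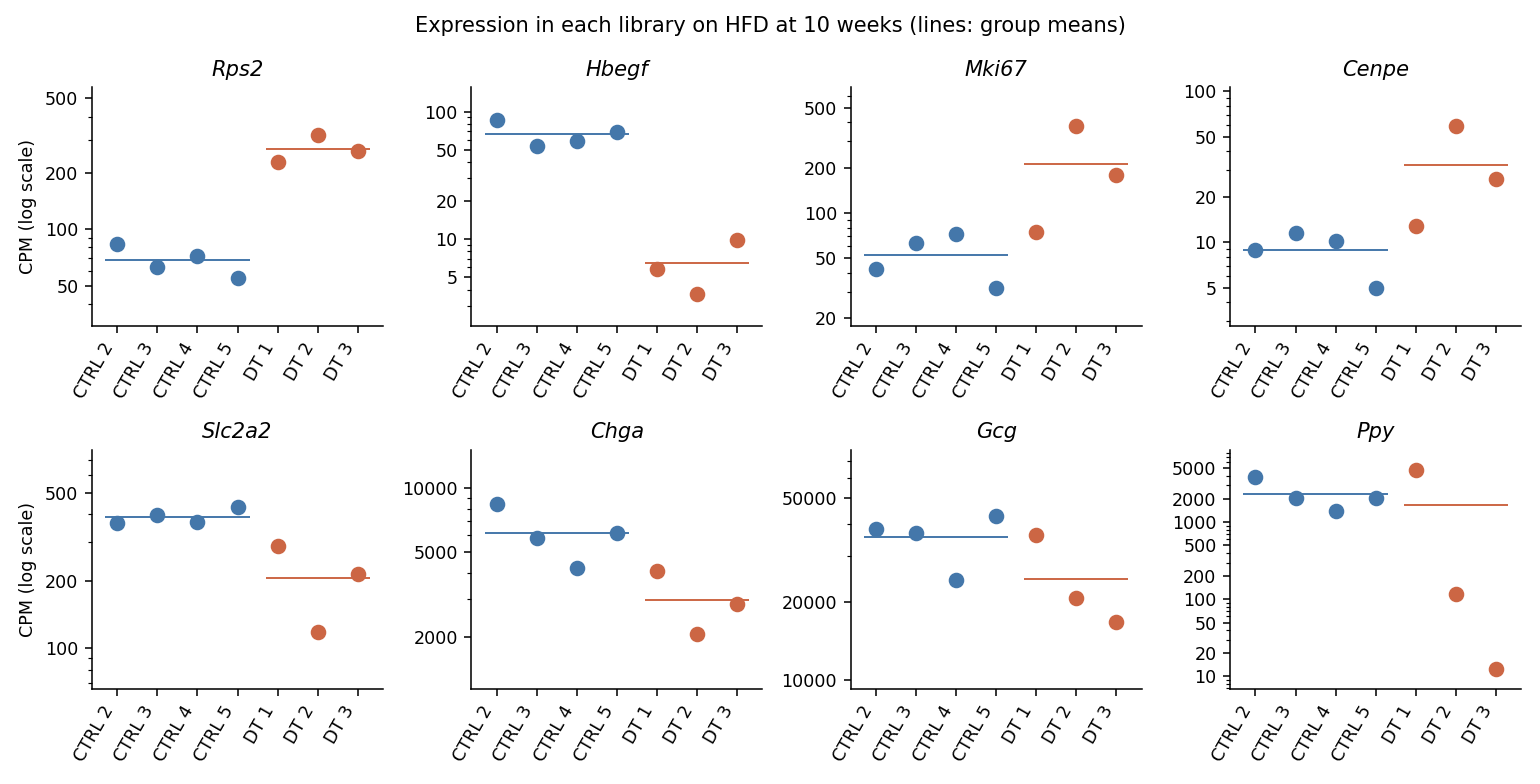
CPM (log axis) of 8 genes in CTRL HFD replicates 2 to 5 (blue) and DT HFD replicates 1 to 3 (orange), 1 point a library, with a line at each group's mean. Rps2 and Hbegf separate the groups widely, whereas for Mki67 and Cenpe DT HFD replicate 1 lies near the controls and replicate 2 highest, and for Ppy the DT libraries run from 12.5 to 4819 CPM.

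Hormone transcripts varied as much within the groups as between them. Ins2, an insulin gene, stood at 112194, 66501, 23836 and 80125 CPM in CTRL HFD replicates 2 to 5 and at 65075, 19244 and 74533 CPM in DT HFD replicates 1 to 3. The groups overlapped, and the difference was -0.42 (SE 0.56, adjusted p = 0.735). Ins1 differed by -0.28 (SE 0.52, adjusted p = 0.809), with a sign that changed when DT HFD replicate 2 was left out (0.11). At this spread a difference in insulin transcripts was not detectable.

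Gcg (glucagon, of alpha cells) differed by -0.53 (SE 0.40, adjusted p = 0.538), and Sst (somatostatin, of delta cells) by -0.49 (SE 0.73, adjusted p = 0.764). Ppy (pancreatic polypeptide) stood at 3877, 2045, 1401 and 2046 CPM in the controls and at 4819, 117 and 12.5 CPM in DT HFD. Replicate 1 was thus above all controls and replicates 2 and 3 far below, so that the mean difference of -0.51 (SE 1.60, adjusted p = 0.894) describes none of them.

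Among beta-cell identity genes the values leaned to lower levels, and this was not particular to them. Of 15 alpha-cell genes 12 were below 0 (median -0.42), of 12 Schwann and glial genes 10 (-0.67) and of 17 duct genes 14 (-0.32). Without DT HFD replicate 2 these medians were -0.25, -0.35 and 0.01. The adipocyte and fibroblast medians were near 0, at 0.02 and -0.08. Of 19 beta-cell identity genes tested, 0 passed, 4 were lower at an unadjusted p below 0.05 (5.22% of all genes were), 18 were below 0 and 8 had groups that did not overlap, against 6.4% of all genes. Their median was -0.54, and without DT HFD replicate 2 it was -0.29 with 0 at that threshold. Slc2a2, encoding the glucose transporter GLUT2, stood at 364, 395, 367 and 432 CPM in the controls and at 286, 118 and 215 CPM in DT HFD (-0.91, SE 0.44, adjusted p = 0.415). DT HFD replicate 2 was lowest. The transcription factor genes Pdx1, Nkx6-1 and Mnx1 differed by -0.73, -0.76 and -1.23 with groups that did not overlap, and Mafa, the activator of mature beta cells, by -0.28 with groups that did. Over 20 beta-cell transcription factors the median was -0.59, with 4 lower at that threshold. Without DT HFD replicate 2 the median was -0.32 with 0 at it, and without replicate 1 it was -0.97 with 11. For these reduced fits the shares of all genes are not reported here.

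The secretory machinery shared by the endocrine cells was lower in value in DT HFD replicates 2 and 3, while replicate 1 lay within the controls for the prohormone and exocytosis lists (mean log2 ratios of -0.12 and -0.01 to the control mean). All 14 genes of prohormone processing and granins were below 0, with 5 lower at an unadjusted p below 0.05 (5.22% of all genes) and a median of -0.68. Chga (chromogranin A, a granule core protein) stood at 8401, 5798, 4192 and 6131 CPM in the controls and at 4057, 2054 and 2848 CPM in DT HFD (-1.04, SE 0.40, adjusted p = 0.361). Every DT library was below every control, as for the granule membrane protein gene Ptprn2 (-1.05, SE 0.36, adjusted p = 0.33) and the zinc transporter gene Slc30a8 (-0.95, SE 0.37, adjusted p = 0.36). The processing enzyme genes Pcsk1 and Pcsk2 differed by -0.40 and -0.54 with overlapping groups. Of 21 granule exocytosis genes 5 and of 20 glucose sensing genes 3 were lower at that threshold, with medians of -0.41 and -0.51. Both counts were 0 without DT HFD replicate 2, and the medians -0.22 and -0.24.

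Of 23 receptors that tune secretion 10 had groups that did not overlap, all lower in DT HFD (6.4% of all genes), and 7 were lower at an unadjusted p below 0.05 (5.22% of all genes). Their median was -0.57. Chrm3, the muscarinic receptor through which acetylcholine raises insulin release, stood at 21.4, 20.4, 15.6 and 25.4 CPM in the controls and at 10.9, 3.59 and 13.5 CPM in DT HFD (-1.14, SE 0.40, adjusted p = 0.335). The lipid receptor gene Gpr119 differed by -0.99 and the incretin receptor gene Glp1r by -0.81, also with separate groups. The summed CPM of the prohormone list, 20003, 15596, 12143 and 16897 in the controls against 13305, 5855 and 8732 in DT HFD, were lowest in the library with the most cell-cycle RNA, replicate 2. Without that library the prohormone median was -0.42 with 1 gene lower at an unadjusted p below 0.05, and the receptor median -0.40 with 2. They were -1.07 with 10 genes and -0.89 with 9 without DT HFD replicate 1. The shares of all genes in these reduced fits are not reported here.

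Hbegf encodes heparin-binding EGF-like growth factor, a ligand of the EGF receptor, and its product in primates is the diphtheria toxin receptor that such transgenes use. It stood at 86.3, 53.6, 58.5 and 68.7 CPM in CTRL HFD replicates 2 to 5 and at 5.77, 3.72 and 9.79 CPM in DT HFD replicates 1 to 3. The lowest control was thus several times above the highest DT library. The means of 66.8 ± 14.4 (SD, n = 4) and 6.43 ± 3.09 (SD, n = 3) CPM gave a difference of -3.37 (SE 0.96), with an adjusted p of 0.323. Fitted on the 7 libraries alone it passed (-3.38, adjusted p = 0.027 by edgeR), as it did with DESeq2 on all libraries (-3.36, adjusted p = 0.00846). In the fit of all groups the spread of the gene includes STZ HFD, where it ran from 5.62 to 408 CPM. Whether this range set the adjusted p of that fit was not tested. The counts do not tell transcripts of the transgene from those of the mouse gene.

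On SD, Hbegf stood at 90.6 to 115 CPM in CTRL SD and 13.2 to 14.6 CPM in DT SD, a difference of -2.90 (adjusted p = 0.322). The DT differences of the diets were 0.48 apart in size (diet difference -0.48, SE 1.19, adjusted p = 0.853). Of the other EGF receptor ligands, Btc, Egf and Tgfa differed by -0.59, -0.58 and -0.50 on HFD and Areg by 0.15, none past the threshold.

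Most immune transcripts were higher in DT HFD replicates 2 and 3 than in replicate 1. Of 19 macrophage and myeloid markers 0 passed and 10 were higher at an unadjusted p below 0.05 (6.73% of all genes), with a median of 0.63. C1qb, a complement subunit made by tissue macrophages, stood at 31.2, 22.6, 37.7 and 40.4 CPM in the controls and at 41.5, 90.9 and 68.3 CPM in DT HFD (1.02, SE 0.32, adjusted p = 0.33). The lowest DT library was just above the highest control. Itgax, encoding CD11c of dendritic cells and some macrophages, differed by 1.22 (SE 0.38) and Cd68 by 0.89, whereas Adgre1, encoding the macrophage marker F4/80, differed by -0.29. Without DT HFD replicate 2 the median was 0.43 and 1 marker was higher at that threshold.

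The antigen presentation and lymphocyte lists were above 0 throughout or nearly so, with wide spread. The 9 MHC class II genes had a median of 0.67, and 5 of them had separate groups, higher in DT HFD, against 5.14% of all genes. At an unadjusted p below 0.05, 1 of the 9 was higher (6.73% of all genes). The 17 B- and plasma-cell markers had a median of 0.64 with 0 at that threshold, and the 19 T- and NK-cell markers 0.57, also with 0. Fitted on the 7 libraries alone, 10 of the B- and plasma-cell markers, 6 of the MHC class II genes and 0 of the T- and NK-cell markers were higher at it. The share of all genes higher at it in that fit is not reported here. Without DT HFD replicate 2 the B- and plasma-cell median was 0.44 and the T- and NK-cell median 0.24. Without CTRL HFD replicate 5 the T- and NK-cell median was 0.33. Igkc, the constant part of the kappa light chain, stood at 3392, 2907, 3558 and 3965 CPM in the controls and at 2066, 8018 and 8901 CPM in DT HFD. DT HFD replicate 1 was thus below all controls and replicates 2 and 3 above all of them. Of 22 chemokines and cytokines 8 were higher at that threshold (6.73% of all genes were), with a median of 0.73, and without DT HFD replicate 2 there was 1, with a median of 0.26. Ccl5, which attracts T cells, stood at 16.3, 15.3, 19.5 and 15.9 CPM against 25.6, 40.1 and 57.9 CPM (1.30, SE 0.60, adjusted p = 0.405). Of 24 interferon response genes 5 were higher at it, with a median of 0.41, and without DT HFD replicate 2 there were 0, with a median of 0.26. The antibody gene segment Ighv5-9 stood at 0.565 to 4.85 CPM in the controls and at 7.00, 21.9 and 321 CPM in DT HFD (5.45, SE 1.24, adjusted p = 0.215), with replicate 3 setting its mean.

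**Figure D4:**
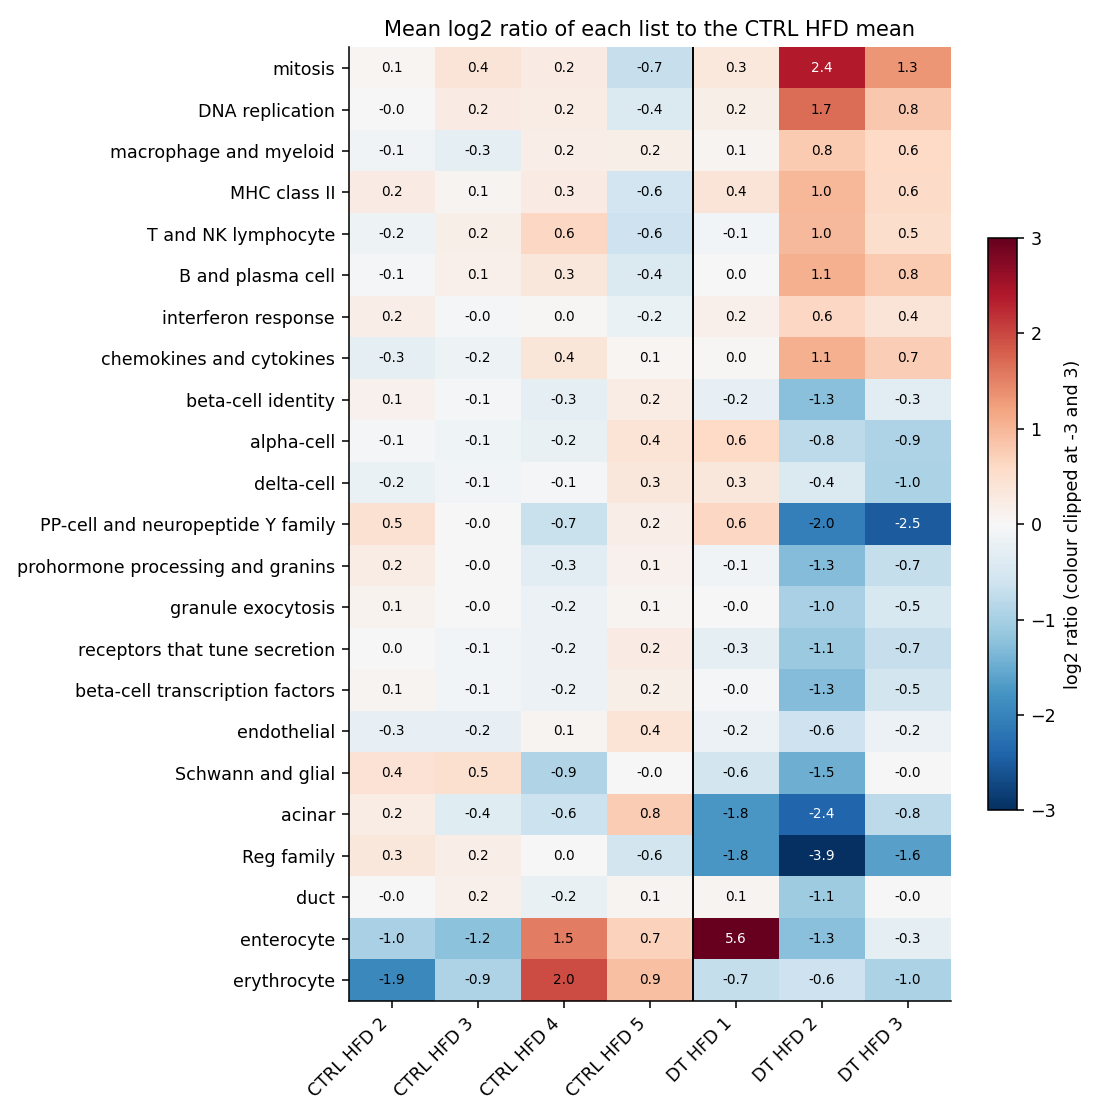
Heat map of the mean log2 ratio of a list's members to the CTRL HFD mean, with lists as rows and the 7 libraries as columns, red for higher and blue for lower values and the value printed in each cell. For mitosis the DT values are 0.31, 2.39 and 1.33, for prohormone processing -0.12, -1.31 and -0.73, and the enterocyte value of DT HFD replicate 1 is 5.64.

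Exocrine transcripts were lower in value in the DT HFD libraries. All 24 acinar genes, which encode mainly digestive enzymes, were below 0 with a median of -1.70, 13 of them with separate groups (6.4% of all genes). In the fit of all groups 0 of them reached an unadjusted p below 0.05. Fitted on the 7 libraries alone, 21 of the 24 acinar genes were lower at that threshold. The share of all genes lower at it in that fit is not reported here. Summed CPM of the acinar genes were 74587, 45645, 35648 and 107354 in the controls and 16438, 10341 and 33150 in DT HFD. The controls thus differed among themselves by more than the nearest libraries of the groups did. All 6 Reg genes, secreted lectins of exocrine tissue and stressed islets, were below 0, with a median of -2.07. Reg2 stood at 49.4, 50.9, 95.1 and 35.5 CPM against 1.94, 0.731 and 7.6 CPM (-4.07, SE 1.66, adjusted p = 0.379). Reg genes are near-identical in parts and their reads may be shared between them. With the acinar score as a covariate the test of all genes called 1 gene, again Rps2, while the Reg median was -0.99 and the enterocyte median 0.68.

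The enterocyte values rest on 1 library. The median of the 15 genes was 4.52, and -1.54 without DT HFD replicate 1. Fabp1, the liver and intestine fatty acid binding protein, stood at 2.30, 1.77, 6.06 and 2.26 CPM in the controls and at 320.0, 1.79 and 1.52 CPM in DT HFD. Endothelial markers were all below 0 (14 of 14, median -0.38), and Th, encoding the enzyme that makes dopamine precursor in sympathetic nerves and some beta cells, stood at 21.7, 18.4, 14.0 and 23.4 CPM against 6.82, 3.92 and 6.57 CPM (-1.74, SE 0.74, adjusted p = 0.38).

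Metabolic lists had medians between 0.03 and 0.23. Oxidative phosphorylation (28 genes) had a median of 0.16, with 24 genes above 0 and 0 genes at an unadjusted p below 0.05 in either direction, mitochondrial fatty acid oxidation (25 genes) 0.04, glycolysis (18 genes) 0.23 and the unfolded protein response (25 genes) 0.03. In 6 of the 18 glycolysis genes every DT library was above every control, against 5.14% of all genes. At an unadjusted p below 0.05, 1 glycolysis gene was higher and 1 lower, where 6.73% and 5.22% of all genes were. Among 24 genes of sterol and fatty acid synthesis the median was 0.09, with groups that did not overlap in 4 members higher and 1 lower in DT HFD. Idi1, an isomerase of the cholesterol pathway, stood at 29.6, 32.4, 37.3 and 33.4 CPM in the controls and at 46.1, 72.5 and 60.7 CPM in DT HFD (0.85, SE 0.22, adjusted p = 0.272). Every DT library was above every control.

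The genes with the smallest p among those lower in DT HFD were of varied function, and none passed. Rnf150, a membrane ubiquitin ligase, stood at 13.3, 15.3, 16.2 and 15.9 CPM in the controls and at 7.53, 5.85 and 5.48 CPM in DT HFD (-1.27, SE 0.27, adjusted p = 0.199). Uri1, a prefoldin-like chaperone, had little spread within the groups, at 60.1, 59.4, 57.5 and 57.0 CPM against 44.7, 44.6 and 42.5 CPM (-0.41, SE 0.10, adjusted p = 0.26).

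For both genes DT HFD replicate 1 lay nearer to the other DT libraries than to the controls, unlike for the cell-cycle genes. Furin, a protease that cleaves proproteins, stood at 55.1, 40.3, 50.1 and 51.5 CPM against 36.6, 28.7 and 30.5 CPM (-0.63, SE 0.17, adjusted p = 0.283). Il6ra, the interleukin-6 receptor, differed by -0.59 (SE 0.15, adjusted p = 0.272) and Dio1, a thyroid hormone deiodinase, by -1.83 (SE 0.49, adjusted p = 0.284). Igf2, an insulin-like growth factor, stood at 12.2, 14.2, 12.6 and 12.4 CPM against 8.53, 3.12 and 4.14 CPM (-1.28, SE 0.40, adjusted p = 0.33). On the other side, S1pr2, a sphingosine-1-phosphate receptor, stood at 7.19, 6.09, 6.64 and 1.62 CPM against 9.88, 36.7 and 10.7 CPM (1.82, SE 0.38, adjusted p = 0.199).

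Whether DT islets differed from controls in another way on HFD than on SD was tested as the difference of both DT differences in the same fit. This called 0 of 17616 genes (0%), while 2751 (15.6%) had an unadjusted p below 0.05, 1755 of them with the larger value on HFD and 996 with the smaller. DESeq2 called 106 and a fit of the groups compared alone 2. DT SD against CTRL SD, which shares no library with the HFD comparison, called 6 genes (0.0341%). Of the cell-cycle lists a larger share than the 15.6% of all genes was below that threshold. The mitosis list had a median of -0.22 on SD against 1.54 on HFD, and 16 of 22 genes had an unadjusted p below 0.05 for the diet difference, all with the larger value on HFD. For DNA replication the medians were -0.14 and 0.95, with 17 of 28 genes. Without DT HFD replicate 2 the HFD medians of the mitosis and DNA replication lists were 0.84 and 0.47. Counts of their genes for the diet difference without that library are not reported here. Mki67 stood at 24.9 to 28.2 CPM in CTRL SD and 6.82 to 39.5 CPM in DT SD, and its diet difference was 2.08 (SE 0.84, adjusted p = 0.282).

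**Figure D5:**
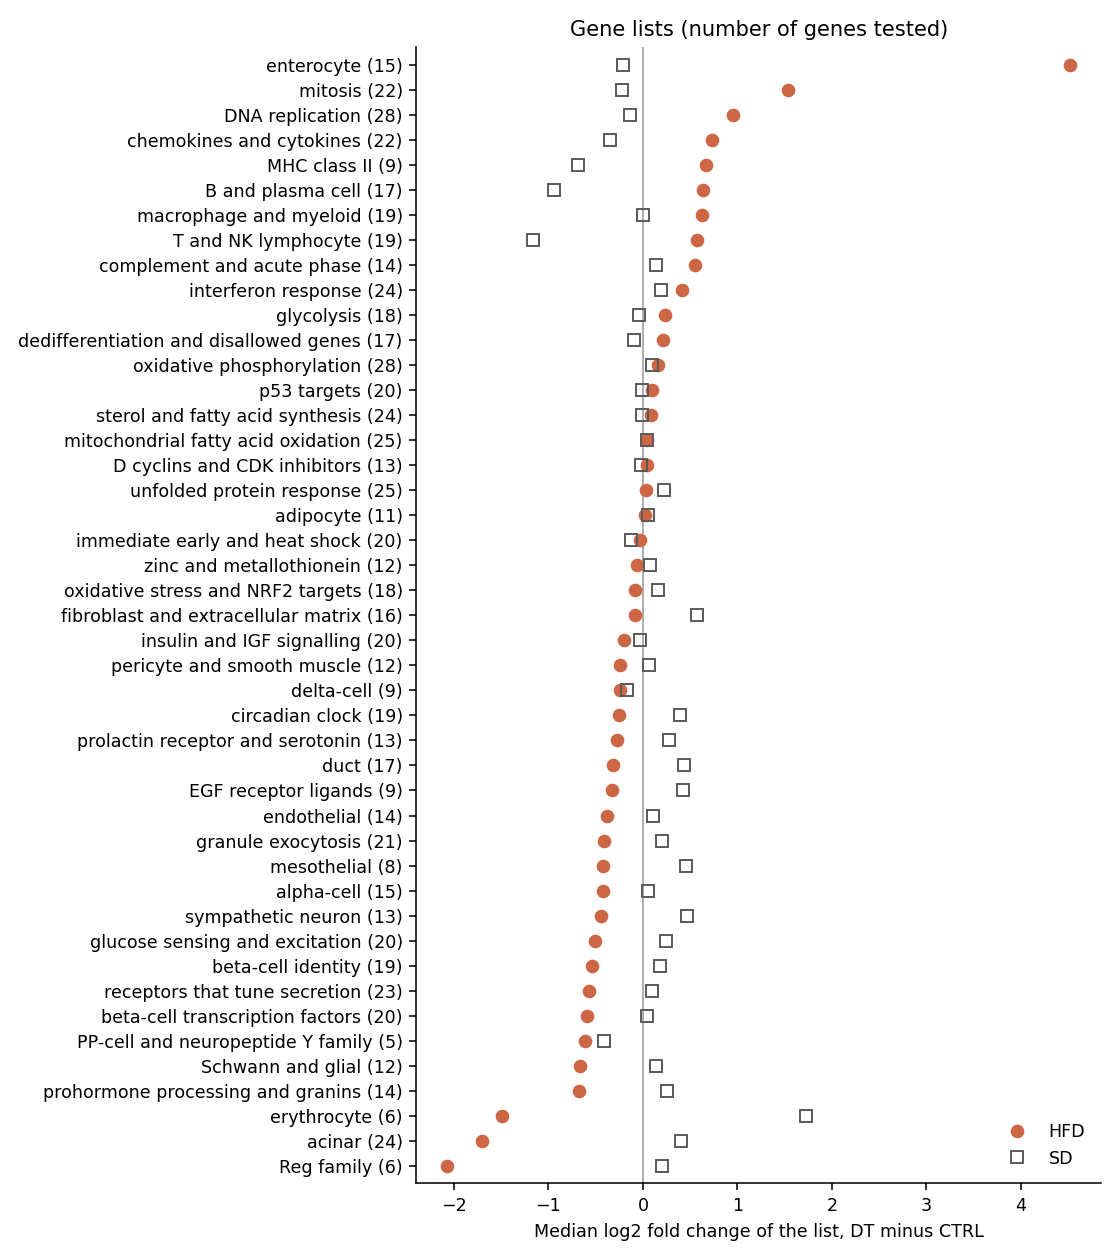
Median log2 difference of DT minus CTRL of each gene list on HFD and on SD, 1 row a list, with circles for HFD, squares for SD, the number of genes tested in brackets and a line at 0. The mitosis list lies at 1.54 on HFD and -0.22 on SD, and the prohormone list at -0.68 and 0.25.

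Some lists of endocrine, immune and other cell types had medians of opposite sign on the diets and others did not. Acinar genes were at 0.40 on SD and -1.70 on HFD, duct genes at 0.43 and -0.32, and Schwann and glial genes at 0.14 and -0.67. Erythrocyte genes were at 1.73 and -1.49 (-0.58 on HFD without CTRL HFD replicate 4), and MHC class II genes at -0.69 and 0.67. The prohormone list was at 0.25 on SD and -0.68 on HFD, beta-cell identity at 0.18 and -0.54, T- and NK-cell markers at -1.16 and 0.57, and B- and plasma-cell markers at -0.94 and 0.64. Without DT HFD replicate 2 the HFD medians of these lists were, in the same order, -0.42, -0.29, 0.24 and 0.44. Medians of the same sign were those of the delta-cell list (-0.17 on SD and -0.24 on HFD), the PP-cell list (-0.41 and -0.61) and the interferon response (0.19 and 0.41), and the macrophage list was at 0 on SD and 0.63 on HFD. Of the prohormone, beta-cell identity, T- and NK-cell and B- and plasma-cell lists 3 of 14, 3 of 19, 3 of 19 and 1 of 17 genes had an unadjusted p below 0.05 for the diet difference, shares that do not all exceed the 15.6% of all genes. Of 9 MHC class II genes 4 did, all with the larger value on HFD, and of 6 erythrocyte genes 5, all with the smaller. Of 22 chemokines and cytokines 6 had the larger and 2 the smaller value on HFD at it, and of 19 macrophage markers 5 and 2. Of 24 acinar genes 0 reached it. Arntl, encoding the clock activator BMAL1, had the smallest p. It stood at 17.7, 17.4, 15.2 and 16.6 CPM in CTRL HFD and at 15.6, 20.4 and 19.5 CPM in DT HFD, a difference of 0.15, and fell on SD by 1.41 (adjusted p = 0.00152). The diet difference was 1.56 (SE 0.28, adjusted p = 0.12). Of 19 clock genes 10 had an unadjusted p below 0.05 for it, 2 with the larger and 8 with the smaller value on HFD. The clock output gene Dbp was among the latter with -2.08 (SE 0.56, adjusted p = 0.282). The hour at which islets were taken is not in the labels.

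STZ HFD against the same CTRL HFD libraries called 83 genes (0.471%). These comparisons share their controls, so only the values are set side by side. Rps2 differed by 2.56 in STZ HFD (adjusted p = 1.91e-05) and by 1.98 in DT HFD, and Hbegf by 0.73 (adjusted p = 0.751) and -3.37. Mki67 ran from 27.8 to 93.9 CPM in the STZ HFD libraries, a range that overlaps both HFD groups.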

How the data were processed

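Per the labels' protocols, islet RNA came from the RNeasy Mini kit and went into the QIAseq stranded mRNA kit. The assembly is mm10, per the submitters' processing notes. For the alignment, the counting, its strand setting and the gene models, the tools were not given in the sources used. Raw counts are what the deposited table lists per gene and for 34 libraries, per the file headers, and all tests ran on these counts. RPKM and TPM as computed by the authors, and a deposited score headed CPM whose sums are not those of CPM, were left aside. Columns were matched by library number, and 0 per-sample columns belonged to other samples.

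Of 48709 genes, 17616 passed filterByExpr of edgeR 4.0.16 (R 4.3.3; count minimum 10, total minimum 15). With TMM scaling, 1 quasi-likelihood model with robust shrinkage and group as its only term was fitted to 33 libraries of 9 groups. Benjamini-Hochberg adjustment ran over all genes tested, and a gene was called below 0.05. CPM are per TMM-scaled library size. The scripts were tested on simulated data. Within each HFD group every pair of libraries differed by a chi-square per degree of freedom of at least 24.64, and none was counted as a duplicate.

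The libraries, the 45 gene lists and the rule for named genes were chosen with earlier results of these data known. The rule takes 12 fixed genes, up to 12 genes each way (called, or else smallest p, mean log2 CPM of at least 1), the 3 list members with the smallest p, and 6 genes for the diet difference. Genes named outside it, chosen after their values were seen, are Top2a, Plk1, Aurka, Ccnb1, Ccnd2, Mcm2, Mcm5, Mcm10, Pdx1, Nkx6-1, Pcsk1, Pcsk2, Glp1r, Cd68, Adgre1, Ccl5, Egf, Areg and Dbp. Not every gene the rule takes is reported here. Alternatives were DESeq2 1.42.0 size factors and Wald test, no and a stricter low-count filter, hormones left out before scaling, an acinar covariate, a replicate block, only the groups compared, and each HFD library left out. Coordinates are from GENCODE on GRCm38, promoters from RefSeq.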

Additional observations from a re-analysis of the deposited data

Results flagged for a closer look

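In 9 of 164 genes tested, 1 of the 4 CTRL HFD libraries stood apart from the other 3 by most of the group's range. Chance flags about 1 in 20 such groups, and the 3 DT HFD libraries were too few to be examined in this way. CTRL HFD replicate 4 held 161 CPM of the beta-cell peptide gene Ucn3 (262 to 273 in the other controls), 6.06 CPM of Fabp1 (1.77 to 2.3), 1.72 CPM of the intestinal lactase gene Lct (0 to 0.242) and 20.4 CPM of the G1 kinase gene Cdk6 (10.8 to 12.4). CTRL HFD replicate 5 held 31.2 CPM of Esam (17.5 to 18.4) and 61 CPM of Emcn (38.6 to 41.5), both endothelial genes, 10 CPM of Dbh (0 to 0.848), an enzyme of noradrenaline synthesis, and 18.8 CPM of the matrix gene Ogn (8.94 to 10.3). CTRL HFD replicate 2 held 80 CPM of the transcription repressor gene Hbp1 (75.7 to 76.2).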

How the results depend on the processing

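Beside the 1 gene called on HFD, the count was 3 with only the groups compared (Rps2, Ctrc and Hbegf) and 63 with the DESeq2 Wald test, and ran from 0 (without CTRL HFD replicate 5, or without DT HFD replicate 2) to 17 (without DT HFD replicate 1). For the difference between the diets, beside 0, it was 2 with only the groups compared and 106 with the DESeq2 Wald test, and 0 whichever library was left out. The cause was not tested. With DESeq2 size factors, other filters, hormones left out, the acinar covariate or the replicate block Rps2 was the gene called. With DT HFD replicates 1 and 2 both left out, which leaves 1 DT library assumed to vary like the other groups, the call was Fabp5. The HFD groups share only the numbers 2 and 3, whose libraries deviated together with correlations of -0.02 and 0.11, so the numbers were not taken as pairs. With the replicate block Rps2 differed by 2.00 (adjusted p = 0.021), 1 gene was called on HFD and 0 for the diets.

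The sign changed, or for Retn the value fell to 0, in 8 named genes, none of them called. Cdkn1a (-0.01) was at 0.01 with DESeq2 size factors, no filter or the DESeq2 Wald test, 0.02 with hormones left out and 0.06 with the replicate block, and Dbh (-2.68) at 0.38 with the block. With 1 library left out Cdkn1a ran from -0.16 to 0.10, Ins1 from -0.62 to 0.11, Ppy from -5.18 to 0.08, Fabp1 from -0.91 to 5.68, Lct from -0.90 to 7.69, Rbp2 from -3.39 to 7.06 and Retn from 0.00 to 3.58. All 3 Retn reads of the 7 libraries were in DT HFD replicate 2, and its 0.00 is the value without that library. Of 45 list medians, 20 moved by more than the SD of the list score over the CTRL HFD libraries without DT HFD replicate 1 and 15 without replicate 2, where 6 and 5 changed sign. With the acinar covariate 8 moved and 3 changed sign. Counts at an unadjusted p below 0.05 also depended on the fit, and the shares of all genes in the other fits are not reported here. With only the groups compared 21 acinar genes were lower in place of 0, and 10 B- and plasma-cell markers were higher in place of 0. Of the endothelial markers 0 were lower in place of 3. The 3 DT libraries differed in lymphocyte and intestinal RNA, and the part of this RNA in the list medians was not tested. No list was tested as a whole.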

Other observations

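The library titled as a CTRL HFD replicate with DT as its treatment label was in no comparison, and its values are given with scaling over all 34 libraries. It held 325.5 CPM of Rps2, where CTRL HFD libraries ran up to 84.1 and DT HFD libraries from 229.7 to 320.0 CPM. It held 257.4 CPM of Hbegf, where CTRL HFD ran from 53.8 to 86.6 and DT HFD from 3.73 to 9.83 CPM. Mki67 stood in this library at 103.3 CPM and Ppy at 791.6 CPM. The STZ HFD ranges given above, scaled without this library, included its values of Rps2 and Hbegf but not that of Mki67, which lay above them.

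Some genes with separate HFD groups fell outside the rule and were chosen after their values were seen. Eif3s6-ps4, a pseudogene copy of a translation factor gene, was at 0 CPM in all CTRL HFD libraries and at 3.06, 3.19 and 4.56 CPM in DT HFD (edgeR adjusted p = 0.112). The interferon-induced gene Ifi44l was likewise at 0 CPM in all controls and at 2.88, 2.92 and 3.04 CPM in DT HFD (edgeR adjusted p = 0.213). Uox, encoding urate oxidase, stood at 2.23, 2.93, 1.72 and 2.26 CPM in the controls and at 0.647, 0.266 and 0.365 CPM in DT HFD (edgeR adjusted p = 0.188).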
